A study of Homo sapiens with 6 samples.

Results

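The genes described are the 5 subunits of the transcription factor NF-kB (RELA, RELB, REL, NFKB1 and NFKB2) and 5 genes whose products restrain or modulate it (NFKBIA, NFKBIE, NFKBIZ, BCL3 and TNFAIP3). They were listed by name, and all 10 were found among the 58515 gene symbols that stand on a single row of the tables. All 10 were also among the 14781 genes that were tested, those averaging 1 TPM or more over the 6 libraries. TPM is reads per transcript length, scaled to 1000000 per library. The tumours were xenografts of the MHCC97L cell line, which was derived from a human hepatocellular carcinoma. In one group the xenografts had been treated with recombinant human lumican (rhLUM, 3 libraries, A to C). The other group is labelled Ctrl (3 libraries, A to C), and what its tumours received is not stated. Lumican is a secreted proteoglycan of the extracellular matrix, and the comparison asks how supplying it changes the tumour transcriptome. A single cell line was used. The sources used here do not give the host animal, the dose or the duration. Nor do they say whether each library stands for its own tumour, so the p-values measure only the spread between these libraries, which may be technical. No batch or date is given.

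NF-kB acts as a dimer of Rel-family subunits that inhibitory IkB proteins hold in the cytoplasm. Signals from cytokine and pattern-recognition receptors activate the IKK kinase complex, which marks IkB for ubiquitination and destruction, and the freed dimers enter the nucleus and switch on inflammatory and survival genes. The genes of several inhibitors, NFKBIA and TNFAIP3 among them, are themselves textbook targets of NF-kB and form negative feedback loops. In the liver the pathway is known for its part in the acute-phase response and in inflammation-linked cancer.

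Across the whole series the libraries of a group correlated at 0.978 to 0.983, and those of different groups at 0.928 to 0.935 (Pearson's r of log2(TPM + 1) over the tested genes, which are not independent replicates). No library stood apart from its group. The depth is unknown, since TPM keeps none. The hepatocyte markers ALB (825 ± 15.4 TPM in rhLUM and 289 ± 3.08 in Ctrl), AFP (28.6 ± 1.95 and 31.2 ± 2.45) and KRT18 (1150.3 ± 3.51 and 901 ± 9.19) were present, while GPC3 was near 0 (0.15 ± 0.12 and 0.11 ± 0.061; SD, n = 3 per group). The immune-defining PTPRC (0.20 ± 0.036 TPM in rhLUM and 0.12 ± 0.10 in Ctrl) and CD3E (0.037 ± 0.032 and 0.073 ± 0.058) were near 0. The summed immune list of 9 genes was 302 to 306 TPM in rhLUM and 222 to 223 TPM in Ctrl, most of it LYZ (241 ± 3.34 and 180 ± 2.05) and CD68 (58.1 ± 2.24 and 33.6 ± 0.81). Of its 3 tested genes these 2 rose, while ITGAM fell (3.84 ± 1.003 TPM in rhLUM and 8.01 ± 0.69 in Ctrl). The 5 endothelial genes summed to 26.9 to 31.7 TPM in rhLUM and 21.6 to 22.9 TPM in Ctrl, and the 7 fibroblast genes to 10.0 to 13.7 TPM in rhLUM and 14.4 to 15.4 TPM in Ctrl. Within these sums members moved in opposite directions: PECAM1 rose (25.3 ± 2.43 and 16.4 ± 0.29 TPM) and CDH5 fell (0.45 ± 0.053 and 3.10 ± 0.34 TPM). But CDH5 had an rhLUM mean under 1 TPM, so it was tested only through its Ctrl level. Without it 1 of the 2 other tested endothelial genes rose and 0 fell. DCN fell (1.26 ± 0.32 TPM in rhLUM and 7.96 ± 0.35 in Ctrl), while COL1A1 (5.11 ± 0.92 and 3.30 ± 0.73 TPM) was called higher as deposited but after neither other scaling. Of these 21 other-cell markers none was at 0 in all 6 libraries. Of the 9 hepatocyte markers 7 were tested and 6 rose, beside 44.5% of all tested genes. KRT8 (1.22 on the log2 scale), HNF4A (1.07) and APOB (0.85) were among those that rose. AFP was called lower after both other scalings used. The part of these shifts in the results was not tested. The tumours were xenografts, the named genome build is the human GRCh38, and whether host reads were removed is not given. Neither low nor shifted values of the other-cell markers therefore measure the content of host cells. Whether these reads came from the tumour line or from the host cannot be told. Fewer cells of a type and less RNA per cell cannot be told apart in such bulk samples either.

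The sequences before RefSeq starts are shown first. Those of genes that were higher and of genes that were lower with rhLUM held the same kind of element. The 250 bases before each RefSeq start (GRCh38.p14) were searched on both strands for the kappaB consensus, the 10-base element that NF-kB dimers bind. Of the 10 genes, 8 had at least 1 start in the RefSeq table, with 13 starts between them; RELB and NFKBIE had none there. The genes printed are the 3 inhibitor genes with the largest falls that matched and the 2 subunit genes that rose, each read 5′ to 3′ along its own strand, with the matching bases in capitals and the RefSeq start just after the last base.
NFKBIA, chr14:35404750-35404999, minus strand: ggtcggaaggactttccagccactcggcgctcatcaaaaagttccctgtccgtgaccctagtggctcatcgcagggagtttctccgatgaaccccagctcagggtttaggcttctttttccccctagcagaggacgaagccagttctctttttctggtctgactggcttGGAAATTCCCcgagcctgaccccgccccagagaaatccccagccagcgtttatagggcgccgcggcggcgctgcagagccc
TNFAIP3, chr6:137867009-137867258, plus strand: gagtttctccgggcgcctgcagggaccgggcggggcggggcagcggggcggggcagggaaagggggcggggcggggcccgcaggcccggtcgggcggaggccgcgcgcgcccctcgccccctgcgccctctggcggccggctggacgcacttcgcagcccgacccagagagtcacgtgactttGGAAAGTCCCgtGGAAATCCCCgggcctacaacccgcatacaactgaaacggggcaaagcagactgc
NFKBIZ, chr3:101827740-101827989, plus strand: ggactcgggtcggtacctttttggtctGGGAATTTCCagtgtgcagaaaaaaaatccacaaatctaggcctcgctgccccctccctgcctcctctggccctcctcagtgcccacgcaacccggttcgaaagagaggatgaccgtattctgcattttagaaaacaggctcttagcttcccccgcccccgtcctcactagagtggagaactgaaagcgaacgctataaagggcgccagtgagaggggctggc
NFKB1, chr4:102501109-102501358, plus strand: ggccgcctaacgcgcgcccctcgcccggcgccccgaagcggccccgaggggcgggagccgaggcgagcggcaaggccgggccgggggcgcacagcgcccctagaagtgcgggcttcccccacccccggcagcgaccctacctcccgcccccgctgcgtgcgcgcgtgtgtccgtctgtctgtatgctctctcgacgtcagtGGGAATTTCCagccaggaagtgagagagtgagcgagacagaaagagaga
REL, chr2:60881324-60881573, plus strand: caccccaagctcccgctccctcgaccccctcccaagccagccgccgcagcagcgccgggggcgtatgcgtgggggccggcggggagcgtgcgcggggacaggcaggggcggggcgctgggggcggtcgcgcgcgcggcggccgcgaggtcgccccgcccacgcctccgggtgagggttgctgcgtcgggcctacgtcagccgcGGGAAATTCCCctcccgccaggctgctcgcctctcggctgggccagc

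The match of NFKBIA lay at -81 to -72, counted in bases from the start. TNFAIP3 held a pair of matches, at -67 to -58 and at -55 to -46. The match before the first start of NFKB1 (-49 to -40) and that of REL (-47 to -37, where overlapping matches merge) lay at a similar distance, while those of NFKBIZ lay farther away, at -223 to -214 before the first of its 2 starts and at -239 to -230 before the other. The other start of NFKB1 had no match. NFKB2 had no match before the first of its 3 starts and 2 separate matches before each of the others. No match was found before either start of RELA or before the start of BCL3, which says only that these letters are not in those windows. Some RefSeq starts lie inside the GENCODE loci given below, so not every window is upstream of its gene. The whole window of BCL3 (44748458 to 44748707) lies inside its locus. So do the matches of TNFAIP3, REL and NFKB2 and that before the other start of NFKBIZ. In all, 6 of the 8 genes held a match before at least 1 of their starts (75.0%), against 6.28% of the 27305 genes in the RefSeq table; by start, 5.21% of all 35116 windows held one. Genes with several starts have more chances of a match. A match is a description of the sequence and not a measured binding site.

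**Figure D1:**
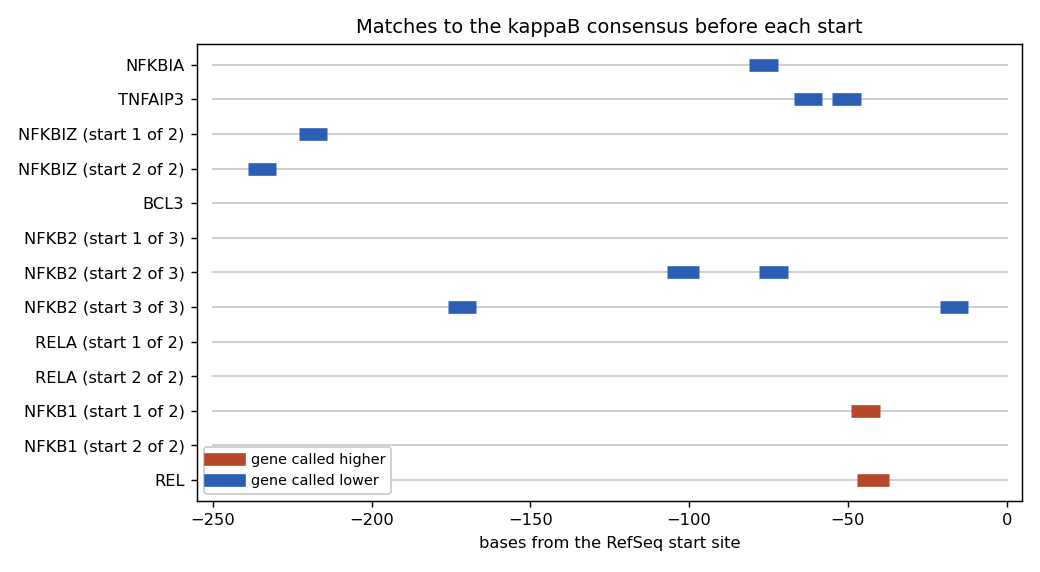
Matches to the kappaB consensus (bars) in the 250 bases before each RefSeq start of the 8 genes that have a listed start, in order of their change from the largest fall (top) to the largest rise (bottom); the horizontal axis is the distance from the start in bases. Bars appear both for genes called lower (NFKBIA, TNFAIP3, NFKBIZ and NFKB2) and for genes called higher (NFKB1 and REL), and none for BCL3 and RELA.

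All 5 inhibitor genes fell in the rhLUM tumours, while the 5 subunit genes went different ways. NFKBIA fell the most, to 56.4 ± 3.41 TPM with rhLUM against 299 ± 4.85 TPM in Ctrl (SD, n = 3 per group). REL and NFKB1 rose, NFKB2 and RELB fell, and RELA passed no test as deposited. Of the 10 genes 7 were called lower and 2 higher (limma on log2(TPM + 1), adjusted p under 0.05 over all 14781 genes). In the whole transcriptome 66.8% of tested genes were called, 22.3% as lower and 44.5% as higher, so that being called is common here. The groups did not overlap for 9 of the 10 genes, against 71.4% of all tested genes; rhLUM was below in 7 (24.3% of all genes) and above in 2 (47.0%). Over all tested genes the median log2 fold change was 0.16. Median-of-ratios scaling moved that median by -0.18 and gave 4827 genes higher and 4797 lower in place of 6571 and 3299. It called 65.1% of genes, with 32.7% higher and 32.5% lower, and 2 and 8 of the 10 genes. Rescaling without mitochondrial genes called 64.1% of genes, with 36.6% higher and 27.5% lower, and 2 and 7 of the 10. Changes smaller than the shift of the median depend on the scaling. With 3 libraries a side, exact permutation of the labels gives no p smaller than 0.1, so the fit across all genes was used.

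**Figure D2:**
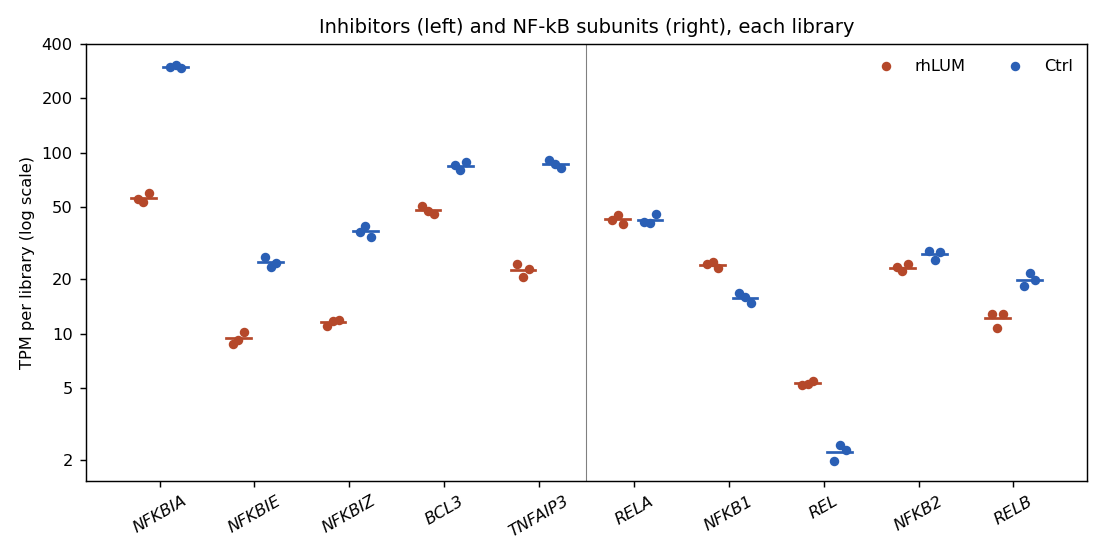
TPM of each gene in each library on a log axis, rhLUM left of Ctrl for every gene, points for libraries A to C and a line at the group mean. The rhLUM points lie below all Ctrl points for the 5 inhibitor genes at left; at right RELA overlaps between the groups, NFKB1 and REL lie above, and NFKB2 and RELB below.

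NFKBIA encodes IkB-alpha, the inhibitor that is degraded and resynthesised fastest after stimulation. The gene lies on chromosome 14 from 35401511 to 35404749 (GRCh38, GENCODE release 29, minus strand, protein coding, as are all 10). It had 55.7, 53.4 and 60.1 TPM in rhLUM libraries A, B and C, against 297, 304 and 295 TPM in Ctrl libraries A, B and C. The highest rhLUM value was far under the lowest Ctrl value, and the rhLUM mean was 18.9% of the Ctrl mean. The log2 fold change was -2.39, with an SE of 0.04 (limma adjusted p = 5.67e-08), which ranked 87 from the lowest among the 14781 genes.

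TNFAIP3 encodes a ubiquitin-editing enzyme that switches off signalling from cytokine receptors to IKK. It lies on chromosome 6 from 137867188 to 137883312. Its values were 24.4, 20.6 and 22.8 TPM in rhLUM, against 90.7, 87.1 and 82.7 TPM in Ctrl. The groups were well apart, with a log2 fold change of -1.90 (SE 0.07, limma adjusted p = 6.91e-07, rank 153 from the lowest). An antisense gene that overlaps its exons by up to 95 bases, AL357060.1, was listed at 0 in all 6 libraries.

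NFKBIZ encodes IkB-zeta, an atypical nuclear member of the IkB family that works as a co-activator of selected NF-kB targets. It lies on chromosome 3 from 101827991 to 101861022. It had 11.1, 11.8 and 11.9 TPM in rhLUM, against 36.7, 39.4 and 34.1 TPM in Ctrl. Every rhLUM value was under every Ctrl value, and the log2 fold change was -1.58, with an SE of 0.06 (limma adjusted p = 1.22e-06, rank 260 from the lowest).

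NFKBIE encodes IkB-epsilon, another cytoplasmic inhibitor, known for later feedback than IkB-alpha. It lies on chromosome 6 from 44258166 to 44265788. It had 8.78, 9.23 and 10.2 TPM in rhLUM, against 26.5, 23.3 and 24.6 TPM in Ctrl, so the groups did not overlap. The log2 fold change was -1.31, with an SE of 0.07 (limma adjusted p = 5.21e-06, rank 439 from the lowest).

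BCL3 encodes a nuclear IkB-family protein that binds dimers of the DNA-binding subunits without transactivation domains and can activate or repress. It lies on chromosome 19 from 44747705 to 44760044. It had 50.5, 47.7 and 46.1 TPM in rhLUM, against 85.2, 80.2 and 88.5 TPM in Ctrl. This was the smallest fall of the 5, with no overlap between groups and a log2 fold change of -0.80 (SE 0.05, limma adjusted p = 8.78e-06, rank 1126 from the lowest). Of all tested genes, 4.47% were called lower by at least 1 on the log2 scale, as were 4 of these 5. A further 6.16% were called higher by at least 1, as was none of the 10 genes.

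Among the subunits, RELA, REL and RELB carry transactivation domains, while the products of NFKB1 and NFKB2 are made as long precursors that are processed to DNA-binding partners. RELA with the NFKB1 product forms the dimer of the canonical pathway, and RELB with the NFKB2 product that of the non-canonical pathway. REL is best known from lymphoid cells.

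REL (chromosome 2, 60881521 to 60931610) had the lowest level of the 10 genes and the largest rise. It had 5.18, 5.28 and 5.43 TPM in rhLUM, against 1.97, 2.42 and 2.28 TPM in Ctrl. All rhLUM values were above all Ctrl values, with a log2 fold change of 0.97 (SE 0.09, limma adjusted p = 8.09e-05), which ranked 1065 from the highest. The rhLUM mean was 2.38 times the Ctrl mean in TPM, more than the log2(TPM + 1) scale shows for so low a gene. A non-coding gene of the same strand, AC010733.2, overlaps REL exons by up to 5702 bases in GENCODE release 29. That symbol is not among the symbols that stand on a single row, so no value for it can be given. The sources used here do not say how reads of such overlaps were divided.

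NFKB1 (chromosome 4, 102501329 to 102617302) also rose. It had 24.4, 24.8 and 23.0 TPM in rhLUM, against 16.7, 15.9 and 14.8 TPM in Ctrl. The groups did not overlap, and the log2 fold change was 0.58, with an SE of 0.06 (limma adjusted p = 9.98e-05). Both rises stayed called after median-of-ratios scaling, REL at 0.82 and NFKB1 at 0.39.

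RELA (chromosome 11, 65653596 to 65663094) was the most abundant subunit in both groups. It had 42.6, 45.2 and 40.5 TPM in rhLUM, against 41.3, 40.9 and 45.6 TPM in Ctrl. The groups overlapped throughout, and the log2 fold change was 0.01 with a 95% interval from -0.14 to 0.15 (limma adjusted p = 0.942). After median-of-ratios scaling the value was -0.19 (adjusted p = 0.0278), and after rescaling without mitochondrial genes -0.11 (adjusted p = 0.161). The mitochondrial share of TPM was 14.3% to 14.5% in rhLUM and 20.5% to 20.7% in Ctrl. As deposited RELA thus had no clear direction, and whether it is called lower depends on the scaling. A non-coding gene of the opposite strand, AP001362.2, overlaps RELA exons by up to 9 bases, and its symbol is not among the single-row symbols either.

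RELB (chromosome 19, 45001430 to 45038198) fell. It had 12.9, 10.7 and 12.9 TPM in rhLUM, against 18.4, 21.6 and 19.7 TPM in Ctrl. No value of one group reached the other, with a log2 fold change of -0.67 (SE 0.09, limma adjusted p = 4.25e-04).

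NFKB2 (chromosome 10, 102394110 to 102402529) changed the least of the called genes. It had 23.3, 22.1 and 24.2 TPM in rhLUM, against 28.6, 25.6 and 28.2 TPM in Ctrl. The groups were separated narrowly, and the log2 fold change was -0.23, with an SE of 0.06 (limma adjusted p = 0.00979). The value was -0.43 after median-of-ratios scaling, and the call was lost when genes of low level were not filtered out (adjusted p = 0.0662).

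**Figure D3:**
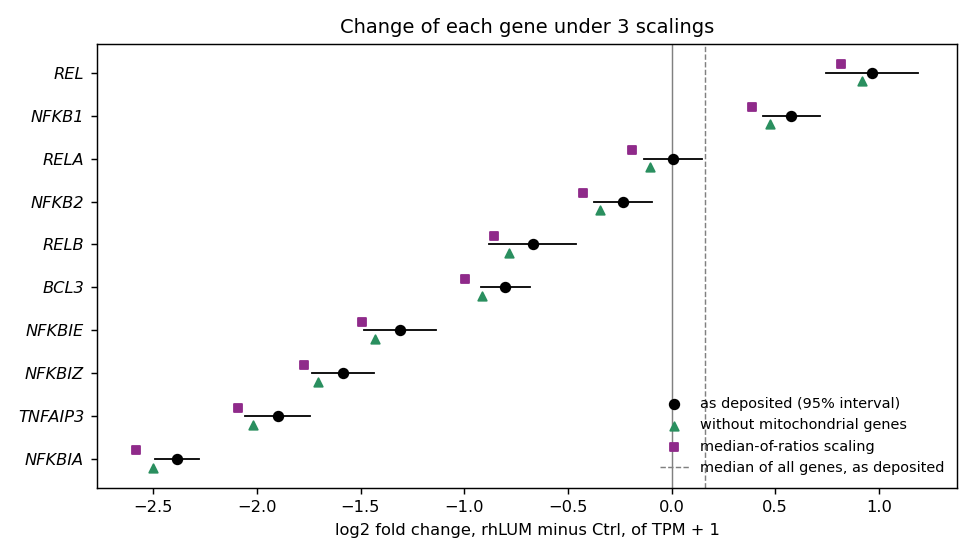
Log2 fold change (rhLUM minus Ctrl, of TPM + 1) of each gene as deposited with its 95% interval (circles), after rescaling without mitochondrial genes (triangles) and after median-of-ratios scaling (squares), with the median of all tested genes at 0.16 as a dashed line. The 5 inhibitor genes, RELB and NFKB2 lie below 0 and NFKB1 and REL above 0 under all 3 scalings; RELA lies at 0.01 as deposited and at -0.19 after median-of-ratios scaling.

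As deposited, the 5 subunits together had about the same summed level in both groups, but were made up differently. Their TPM summed to 108, 108 and 106 in rhLUM, against 107, 106 and 111 in Ctrl. RELA made up 39.8 ± 1.86% of that sum in rhLUM and 39.4 ± 1.58% in Ctrl (SD, n = 3 per group). NFKB1 made up 22.4 ± 0.62% in rhLUM and 14.6 ± 1.13% in Ctrl, and REL 4.93 ± 0.17% and 2.06 ± 0.22%. RELB made up 11.3 ± 1.23% in rhLUM and 18.4 ± 1.63% in Ctrl, and NFKB2 21.6 ± 1.18% and 25.4 ± 1.34%. The groups overlapped for the share of RELA and for none of the other 4 shares. Such shares and ratios within a library do not depend on how libraries are scaled, and they are given without a test. The sums do depend on it. Median-of-ratios scaling divides rhLUM libraries by 1.07 to 1.08 and Ctrl libraries by 0.93 to 0.94, which lowers the rhLUM sums and raises the Ctrl sums.

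Of the 10 possible subunit pairs, the ratios of NFKB1 to NFKB2 and of RELA to RELB are given here. For single genes, 71.4% of all tested genes did not overlap between the groups. No such share was computed for ratios, so their separation is not set against a background. NFKB1 stood at 1.05, 1.12 and 0.95 times NFKB2 in rhLUM, against 0.58, 0.62 and 0.53 times in Ctrl. The canonical RELA stood at 3.31, 4.22 and 3.14 times the non-canonical RELB in rhLUM, against 2.24, 1.89 and 2.32 times in Ctrl. Both ratios were higher in every rhLUM library than in any Ctrl library.

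The summed TPM of the 5 genes called inhibitors here, over that of the subunits, was lower in every rhLUM library than in any Ctrl library. Since NFKBIZ and BCL3 can also activate, this is a ratio of transcript sums and not a measure of inhibition. The 5 inhibitor genes summed to 150, 143 and 151 TPM in rhLUM, against 536, 534 and 525 TPM in Ctrl. Per unit of summed subunit TPM this was 1.39, 1.32 and 1.42 in rhLUM, against 5.005, 5.02 and 4.75 in Ctrl. NFKBIA alone stood at 1.31, 1.18 and 1.48 times RELA in rhLUM, against 7.18, 7.44 and 6.47 times in Ctrl. Within the inhibitors, NFKBIA made up 38.1 ± 1.48% of the sum in rhLUM and 56.2 ± 0.78% in Ctrl, while BCL3 made up 32.5 ± 1.71% and 15.9 ± 0.92% (SD, n = 3 per group). The shares of TNFAIP3 and NFKBIZ overlapped between groups. These are transcript levels; protein levels were not measured here.

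**Figure D4:**
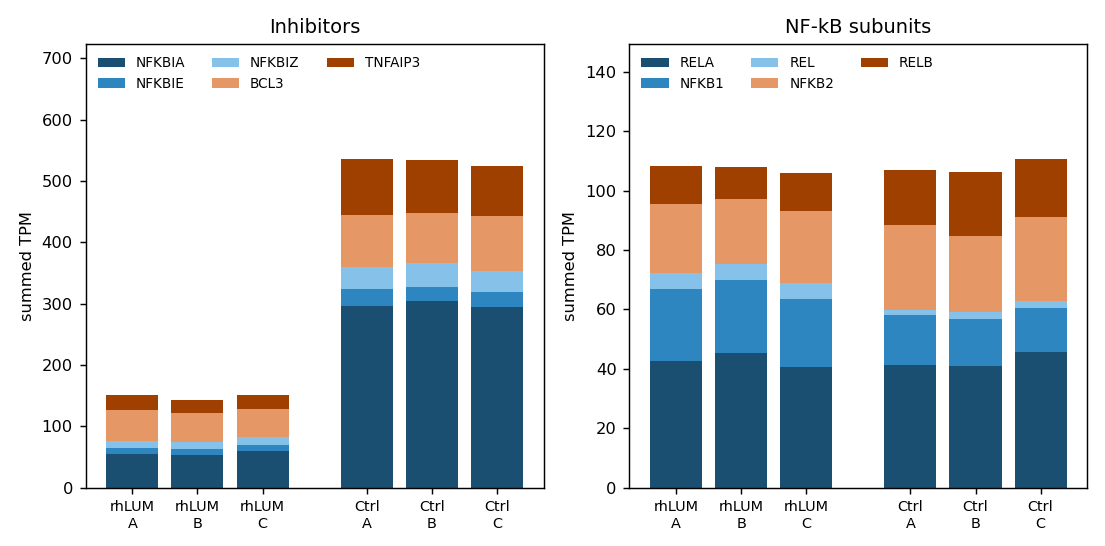
Summed TPM of the 5 inhibitor genes (left) and the 5 subunit genes (right) in each library, stacked by gene, with the rhLUM libraries left of the Ctrl libraries and both axes starting at 0. The inhibitor bars reach 143 to 151 TPM in rhLUM and 525 to 536 TPM in Ctrl, while the subunit bars reach 106 to 108 TPM in rhLUM and 106 to 111 TPM in Ctrl.

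The order of the 10 genes by mean TPM, which is already adjusted for transcript length, differed between groups. In rhLUM it ran NFKBIA, BCL3, RELA, NFKB1, NFKB2, TNFAIP3, RELB, NFKBIZ, NFKBIE and REL. There the ranges of NFKB1 and NFKB2, of NFKB2 and TNFAIP3, and of RELB and NFKBIZ overlapped. In Ctrl it ran NFKBIA, TNFAIP3, BCL3, RELA, NFKBIZ, NFKB2, NFKBIE, RELB, NFKB1 and REL, with overlapping ranges for TNFAIP3 and BCL3 and for NFKB2 and NFKBIE. By mean NFKB1 thus had rank 4 in rhLUM and rank 9 in Ctrl. But in rhLUM its range overlapped that of TNFAIP3 too, so ranks 4 to 6 are not set apart. A rank also moves when other genes fall. Within a group the coefficient of variation was 2.38% to 10.3% in rhLUM and 1.62% to 10.4% in Ctrl over the 10 genes.

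The genes whose profile over the 6 libraries lay nearest to that of NFKBIA were SCN3A, PTGDS and BIRC3, at distances of 0.14, 0.17 and 0.18 (Euclidean, on log2(TPM + 1) centred on each gene's mean). BIRC3, a ubiquitin ligase that inhibits apoptosis and acts in the same receptor complexes, had 31.8, 34.0 and 32.7 TPM in rhLUM, against 181, 183 and 186 TPM in Ctrl. PTGDS, a prostaglandin D synthase, had 3.48 ± 0.47 TPM in rhLUM and 22.6 ± 1.18 TPM in Ctrl. SCN3A, a sodium channel subunit, was under 1 TPM in rhLUM (0.19 ± 0.030, against 5.37 ± 0.24 in Ctrl; SD, n = 3 per group), where this scale compresses changes. With 2 groups of libraries, likeness mainly means a fold change of the same size.

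The 3 other IkB-like genes had changes between -0.65 and 0.24. NFKBIB, which encodes the cytoplasmic inhibitor IkB-beta, had 14.6, 12.9 and 15.6 TPM in rhLUM, against 18.4, 19.0 and 20.01 TPM in Ctrl (log2 fold change -0.39, limma adjusted p = 0.00263). NFKBID, an atypical nuclear member, fell too (-0.65, limma adjusted p = 0.00238). NFKBIL1 rose by 0.24 as deposited (limma adjusted p = 0.0439), a call that was lost after both other scalings.

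Of 11 genes of the IKK complex and its upstream kinases 7 rose and 2 fell, with a median log2 fold change of 0.40 against 0.16 for all genes, of which 44.5% rose and 22.3% fell; after median-of-ratios scaling 6 rose and 3 fell, with a median of 0.21 against -0.02. CHUK, the catalytic subunit IKK-alpha, had 19.7, 21.4 and 20.1 TPM in rhLUM, against 11.8, 11.2 and 10.9 TPM in Ctrl (0.80, limma adjusted p = 1.47e-05). TAB2, an adaptor of the kinase upstream of IKK, rose by 0.52. The regulatory subunit IKBKG rose by 0.41; it has a near-identical pseudogene copy, so its value is uncertain. IKBKB, the catalytic subunit IKK-beta, ranged from 17.9 to 25.6 TPM in rhLUM and 23.9 to 27.9 TPM in Ctrl and did not pass as deposited (limma adjusted p = 0.0557). It was called lower after median-of-ratios scaling (-0.53, adjusted p = 0.00984) and without mitochondrial genes (-0.45, adjusted p = 0.0210). The kinases that fell were MAP3K8 (-0.86), which links the NFKB1 precursor to ERK signalling, and IKBKE (-0.58), an IKK-related kinase.

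Of 21 genes of ubiquitination in the pathway 12 rose and 6 fell, with a median of 0.22, beside 44.5% higher, 22.3% lower and a median of 0.16 for all genes. After median-of-ratios scaling 9 rose and 7 fell, with a median of 0.03, beside 32.7%, 32.5% and -0.02. BTRC and FBXW11, the recognition subunits of the ligases that mark phosphorylated IkB for destruction, rose by 1.05 and 1.12. FBXW11 had 17.6 ± 0.89 TPM in rhLUM and 7.54 ± 0.53 TPM in Ctrl (SD, n = 3 per group). The ligase ITCH and the adaptor TAX1BP1, which work with TNFAIP3, rose by 1.41 and 0.81. All 3 subunits of the linear ubiquitin ligase, RBCK1 (-0.43), RNF31 (-0.52) and SHARPIN (-0.25), fell, as did BIRC3 (-2.45), BIRC2 (-0.15) and TNIP1 (-0.17).

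Of 27 receptor and adaptor genes 23 were tested, of which 11 rose and 4 fell, with a median of 0.19. These lie near the 44.5% higher, 22.3% lower and median of 0.16 of all genes. After median-of-ratios scaling 9 rose and 7 fell, with a median of 0.003. TNFRSF1A, the main receptor for TNF, had 284 ± 2.79 TPM in rhLUM and 188 ± 5.42 TPM in Ctrl, a log2 fold change of 0.59. The receptor kinase gene IRAK1 (0.46) and the lipopolysaccharide receptor gene TLR4 (0.92) rose as well. TNFRSF1B, the second TNF receptor, fell by 1.49 on the log2 scale, RIPK2 by 0.46, TRAF3IP2 by 0.78 and NOD1 by 0.52.

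Of 6 other feedback genes 5 were tested and 4 fell, beside 22.3% of all tested genes. The 4 were SOCS3 (-2.59), DUSP1 (-2.00), ZC3H12A (-1.82) and ZFP36 (-1.61). ZC3H12A encodes an RNase that degrades inflammatory messenger RNAs, NFKBIZ among its known substrates. It had 7.81, 8.55 and 7.16 TPM in rhLUM, against 30.5, 28.6 and 31.5 TPM in Ctrl. The list's median was -1.82, beside -1.58 for the 5 inhibitors; ARID5A did not pass as deposited (-0.13, limma adjusted p = 0.306) and was called lower after median-of-ratios scaling (-0.31, adjusted p = 0.0392).

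All 18 tested of 20 inflammatory target genes fell, beside 22.3% of all tested genes. The median of the 18 was -2.96 (-3.14 after median-of-ratios scaling). For 4 of them (IL6, TNF, CSF2 and CSF3) the rhLUM mean was under 1 TPM, so that they were tested only through their Ctrl level; the other 14 had a median of -3.32. CXCL1 (-5.07), CXCL2 (-4.52), CCL20 (-4.16), CXCL5 (-2.70) and SOD2 (-2.05) had the smallest p. CXCL1 and CXCL2 are close in sequence, so reads could be shared between them. LCN2, a gene known to need IkB-zeta in mouse cells, had 42.5, 38.9 and 40.3 TPM in rhLUM, against 1443, 1398 and 1429 TPM in Ctrl. Of 9 genes linked to IkB-zeta 6 were tested and all 6 fell, beside 22.3% of all tested genes. CCL20, IL6 and CSF3 are on the inflammatory list as well, so the lists are not separate counts. But 4 of the 6 had an rhLUM mean under 1 TPM. Among these DEFB4A, a defensin gene, was listed at 0 in all rhLUM libraries and at 23.2, 24.8 and 29.5 TPM in Ctrl. These lists were chosen with earlier results of these data known and are not independent evidence of a direction.

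Survival targets of NF-kB went both ways. Of 10 tested, 5 fell and 2 rose, with a median of -0.42, beside 22.3% lower and 44.5% higher for all tested genes. After median-of-ratios scaling 8 fell and 2 rose (median -0.59), beside 32.5% and 32.7% of all tested genes. BCL2A1, among those that fell, had an rhLUM mean under 1 TPM. Without it 4 fell and 2 rose as deposited, with a median of -0.25. BIRC3 (-2.45), TNFAIP2 (-2.13) and IER3 (-1.45) fell with the inhibitors. BIRC3 and a gene that was not called as deposited were also counted among the genes of ubiquitination. BCL2L1, an anti-apoptotic BCL2-family gene, had 102 ± 3.42 TPM in rhLUM and 40.7 ± 0.82 TPM in Ctrl (1.31; SD, n = 3 per group), and XIAP, a caspase inhibitor, rose by 0.75. The kappaB consensus was found before a start of 8 of the 16 inflammatory and 2 of the 9 survival targets in the RefSeq table. It was found before none of the 6 feedback genes. The share of all 27305 genes was 6.28%, so none of 6 is no contrast. Other lists held 2 of 3 other IkB-like genes, 3 of 7 linked to IkB-zeta and 4 of 19 of ubiquitination. The IKK list held 1 of 10 and the receptor list 1 of 22.

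**Figure D5:**
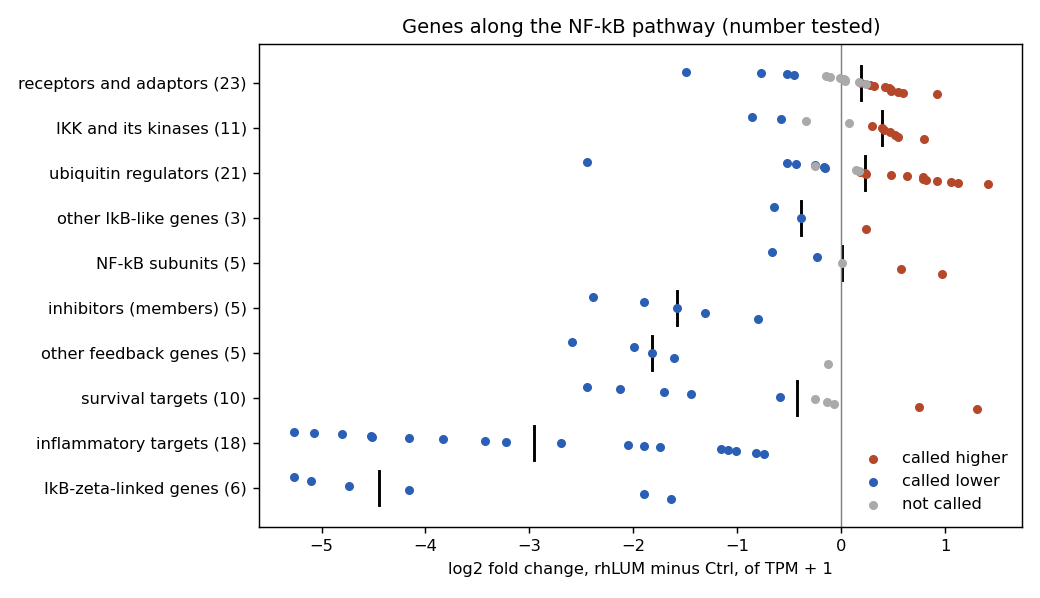
Log2 fold change (rhLUM minus Ctrl, of TPM + 1) of every tested gene of 10 groups along the NF-kB pathway, from receptors (top) to targets (bottom), coloured by call, with a black line at each group's median. Medians lie between 0.19 and 0.40 for the receptor, IKK and ubiquitin groups, at -1.58 for the inhibitors and at -2.96 for the inflammatory targets.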

How the data were processed

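Per the labels' protocols, poly-A RNA of MHCC97L xenografts was made into libraries and read on an Illumina NovaSeq, 3 libraries per group. The submitters' processing notes name STAR 2.7.8, RSEM 1.2.31 and GRCh38. Annotation release, strand setting and any removal of host reads: not given in the sources used here. The deposited values are TPM, per the file headers; each library sums to about 1000000, which keeps no depth, so no counting interval can be given. A total of 2210 rows under 313 shared symbols were left out. Values were taken as log2(TPM + 1) and fitted by group alone with limma 3.58.1 (R 4.3.3, variance trend), over genes averaging 1 TPM or more. Tests were two-sided, with Benjamini-Hochberg adjustment over all tested genes. The fit was tried on simulated data in which few genes changed, equally up and down. That trial does not bear on the scaling of these libraries. Fold changes on this scale understate the change of low genes. Alternatives were 2 scalings, a pseudocount of 0.1, other filters and trend settings, a block by replicate letter and leaving out each library. The genes and lists were chosen with earlier results of these data known. Named genes were the 10 genes, per list up to 5 called genes of smallest p and those that moved against most of it, and the 3 nearest to NFKBIA; IKBKB, BTRC, ARID5A, the genes under 1 TPM and the cell type markers that were not called were named after their values were seen. Loci are from GENCODE release 29 and promoters from RefSeq (GRCh38.p14), matched by symbol.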

Additional observations from a re-analysis of the deposited data

How the results depend on the processing

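Across the 13 alternatives, which include leaving out each of the 6 libraries, NFKB1, REL, RELB and the 5 inhibitor genes kept their direction and stayed past the threshold. NFKB2 was called in 12 of 13, and was lost at an unchanged -0.23 without the filter on low values (limma adjusted p = 0.0662). RELA, at 0.01 and not called as deposited, was called lower at -0.19 after median-of-ratios scaling (limma adjusted p = 0.0278). The cause of either was not tested. Without 1 library NFKBIA ranged from -2.43 to -2.35 and RELA from -0.03 to 0.05, never called. Median-of-ratios scaling gave 0 other IkB-like genes higher, 7 receptor and adaptor genes lower, 8 survival targets lower, 1 hepatocyte marker lower and 0 fibroblast markers higher, in place of 1, 4, 5, 0 and 1. Rescaling without mitochondrial genes gave the same 0, 8, 1 and 0 for the first and the last 3 of these. The replicate letters showed no clear pairing of the libraries. Same-letter deviations correlated at 0.03, -0.02 and 0.08 across genes, and those of different letters at -0.08 to 0.05. Such weak values cannot settle whether the letters pair. With the replicate block 6429 genes were higher and 3219 lower, and 2 and 7 of the 10 genes. The depth is unknown, so no counting error could be set beside any value.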
